A study of Rattus norvegicus with 6 samples.

Results

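The genes described here are 10 structural genes of the intestinal epithelium, the keratins Krt8, Krt18, Krt19, Krt20 and Krt7, the microvillus protein villin (Vil1), the adhesion proteins Epcam, Cdh1 and Cdh17, and the transcription factor Cdx2. They were chosen by name, and their probes were found by matching the accession of each array probe to rat RefSeq genes. All 10 had a probe in the normalized table, among 12418 named genes tested, and each was read by 1 probe. Gene expression was measured in colon RNA of 6 male rats, with 1 single-color Agilent oligonucleotide array per rat. The question of the comparison is how colonic gene expression differs between the strains after a carcinogen.

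The 3 rats C1, C2 and C3 belonged to the S.LEW(10)x12x2x3x5 congenic strain, here called S.LEW congenic, which carries a segment of Lewis rat chromosome 10 on the background of the Dahl salt-sensitive (S) rat. The 3 rats S1, S2 and S3 were S rats, an inbred hypertensive strain. Both strains had been given the colon carcinogen azoxymethane (AOM) by intraperitoneal injection at 15 mg per kg, 2 times from 6 weeks of age. All were fed a low salt diet (0.3% NaCl) and were 30 weeks old at harvest, and no untreated rat was among the arrays. S and congenic rats were housed together, but the labels do not tie array numbers to cages. The labels do not say whether the RNA came from tumors or from colon without tumors. In RNA of whole tissue, fewer cells of a type and less RNA per cell cannot be told apart.

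Simple epithelia such as the lining of the colon are held in shape by keratin filaments, in which a type II keratin (Krt8 or Krt7) pairs with a type I keratin (Krt18, Krt19 or Krt20). Krt20 is found mainly in the mature cells at the surface of the crypt, and Krt7 is scarce in normal colon and common in ducts, bladder and mesothelium. Villin bundles the actin of the microvilli of the brush border, Cdh1 (E-cadherin) and Cdh17 (liver-intestine cadherin) join neighboring cells, Epcam is a surface protein of most epithelia, and Cdx2 maintains the identity of the intestinal epithelium.

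The array limits each value through the brightness of its spots and through the 3 rats per strain. The median intensity of an array was 214 to 594, between 73.8% and 87.6% of the spots were well above background, and no spot was saturated. All 10 genes were well above background on all 6 arrays, and so were the 6 goblet cell genes and the 8 smooth muscle genes tested, so the RNA held epithelium and muscle in every rat. The S rats did not resemble each other equally. Over all probes S2 correlated with the congenic arrays at 0.967 to 0.976 and with S1 at 0.900 and S3 at 0.937, while S1 and S3 correlated at 0.980. The values are the normalized log2 signals that the authors deposited, the strains were compared with limma, and a gene is called where the unadjusted p was under 0.05 with at least a 2-fold change, the cut-offs of the study. No probe reached an adjusted p under 0.05 by limma with Benjamini-Hochberg adjustment, where the smallest was 0.0843, while 3115 of 23997 probes had an unadjusted p under 0.05.

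The RefSeq promoter table held 6 of the 10 genes, Krt8, Krt18, Krt20, Vil1, Epcam and Cdx2. The promoters of 4 of them are printed here because Krt8 and Krt18 encode the pair of keratins that form filaments together, and Krt20 and Vil1 had the smallest p-values of the 10. Each window holds 300 bases around the start of transcription, read 5′ to 3′ in the direction of the gene, in the GRCr8 assembly. Krt8 lies at chr7:135010290-135010589 on the minus strand, Krt18 at chr7:135035918-135036217 on the plus strand, Krt20 at chr10:84890236-84890535 on the minus strand, and Vil1 at chr9:83439998-83440297 on the plus strand. Krt20 thus lies on the chromosome that carries the Lewis segment. The study reports Rffl as the only protein-coding gene of that segment, which places Krt20 outside it. Capitals mark any of 4 motifs on either strand, the TATA box TATAAA, the GC box GGGCGG, the E-box CAGGTG that Snail proteins can bind, and the CDX site TTTATG.
Krt8: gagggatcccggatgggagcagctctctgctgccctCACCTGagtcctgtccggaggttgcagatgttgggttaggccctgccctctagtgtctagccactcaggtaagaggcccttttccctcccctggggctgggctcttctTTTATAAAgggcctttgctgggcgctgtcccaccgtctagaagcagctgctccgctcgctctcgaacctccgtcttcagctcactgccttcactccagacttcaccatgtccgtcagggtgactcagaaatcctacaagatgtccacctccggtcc
Krt18: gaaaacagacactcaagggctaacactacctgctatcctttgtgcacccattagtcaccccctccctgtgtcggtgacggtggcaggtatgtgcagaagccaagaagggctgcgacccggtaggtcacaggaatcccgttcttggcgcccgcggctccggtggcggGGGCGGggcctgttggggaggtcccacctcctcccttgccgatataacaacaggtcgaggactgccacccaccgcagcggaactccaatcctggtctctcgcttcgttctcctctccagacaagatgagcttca
Krt20: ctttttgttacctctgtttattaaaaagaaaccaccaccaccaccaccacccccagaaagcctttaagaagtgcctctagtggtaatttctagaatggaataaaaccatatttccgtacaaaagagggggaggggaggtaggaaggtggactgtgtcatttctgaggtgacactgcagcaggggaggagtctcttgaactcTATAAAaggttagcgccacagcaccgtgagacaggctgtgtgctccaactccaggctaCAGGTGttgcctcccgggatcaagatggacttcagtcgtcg
Vil1: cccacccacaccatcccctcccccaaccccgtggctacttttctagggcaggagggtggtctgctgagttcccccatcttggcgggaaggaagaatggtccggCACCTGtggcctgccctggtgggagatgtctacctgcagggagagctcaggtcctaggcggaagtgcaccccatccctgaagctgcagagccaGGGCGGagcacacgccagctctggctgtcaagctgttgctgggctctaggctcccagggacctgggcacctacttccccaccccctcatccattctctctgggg

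The TATA box letters were found in the windows of Krt8 and Krt20, and in 14.2% of all 33469 promoters in the table. In Krt8 the matches on both strands overlap. The GC box letters were found in Krt18, Vil1 and Epcam (33.1% of all promoters), and the E-box letters in Krt8, Krt20, Vil1 and Epcam (18.8% of all promoters). The CDX letters, present in 12.7% of all promoters, were in none of the 6 windows. A match is a description of the letters and not of binding.

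The genes other than Krt7 all had a higher mean in the S.LEW congenic rats, and Krt7 had a lower mean. Only Vil1 met the cut-offs for a call, at 2.02-fold higher, so 1 of 10 genes was called higher and 0 of 10 lower. Among all genes tested, 3.79% were called higher and 2.62% lower, and among probes 3.23% and 2.34%. At an unadjusted p under 0.05 without a fold limit, 7 of the 10 were higher, against 10.1% of all genes, and 0 were lower, against 4.4% of all genes. The median log2 fold change of the 10 was 0.78, beside 0.03 over all 12418 genes and 0.95 over 8 smooth muscle genes. None of the 10 had an adjusted p under 0.05, with a range of 0.229 (Krt20) to 0.498 (Krt18) by limma with Benjamini-Hochberg adjustment.

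In 6 genes, Krt19, Krt20, Vil1, Cdh1, Cdh17 and Cdx2, the 3 congenic rats lay wholly above the 3 S rats, and in 0 they lay wholly below. Of all genes, 14.2% lay wholly above and 5.01% wholly below. The strains overlapped in Krt8, Krt18, Epcam and Krt7. With 3 rats against 3, the smallest two-sided p of an exact permutation test is 0.1, which is the value of each gene whose strains did not overlap.

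**Figure D1:**
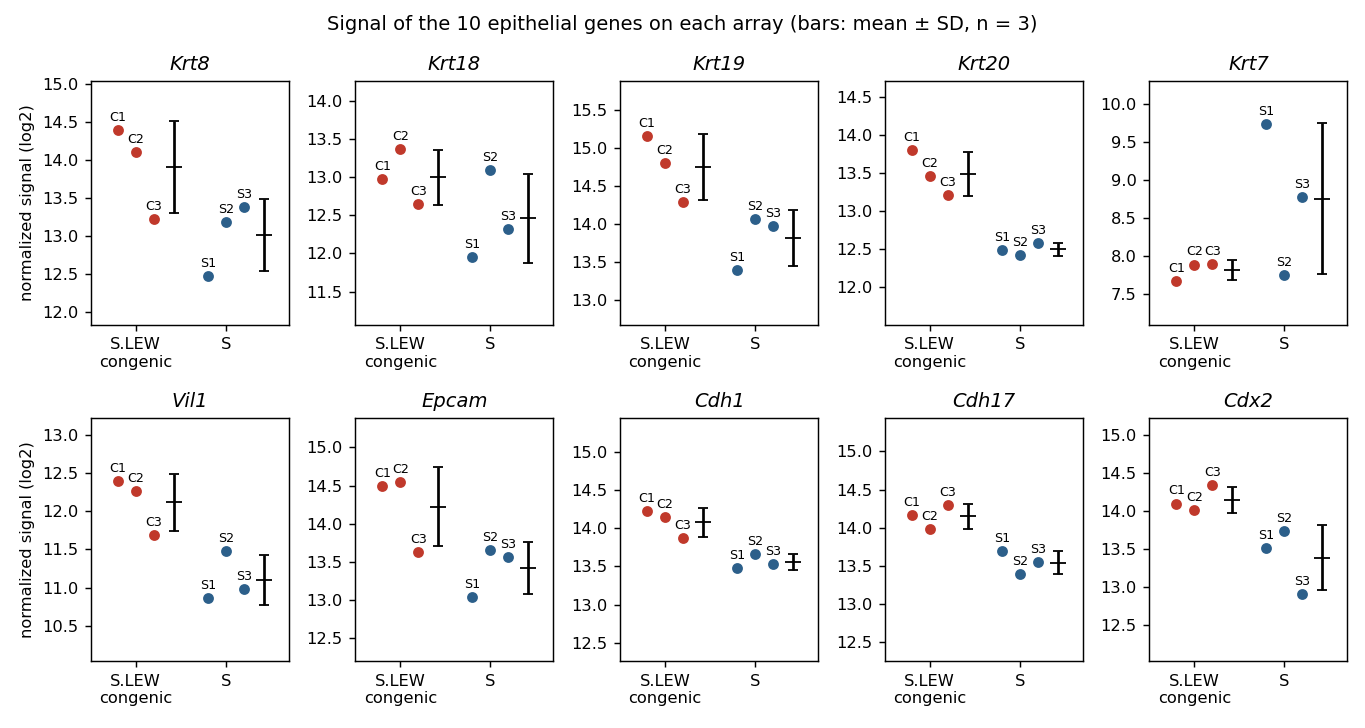
Normalized log2 signal of the 10 genes on each array, with the congenic rats (C1 to C3, red) and the S rats (S1 to S3, blue), and bars for the mean ± SD of 3 rats. Each panel has its own range, the strains are apart in Krt19, Krt20, Vil1, Cdh1, Cdh17 and Cdx2, and in Krt7 only S1 and S3 stand above the other rats.

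Krt8 encodes the main type II keratin of the colonic epithelium. On the log2 scale the signals of C1, C2 and C3 were 14.39, 14.10 and 13.23, and those of S1, S2 and S3 were 12.48, 13.18 and 13.38. C1 and C2 were above every S rat, while C3 lay between S2 and S3. The congenic mean exceeded the S mean by 0.89 on the log2 scale (standard error, SE, 0.38, 95% interval -0.03 to 1.82, limma adjusted p = 0.389), and the exact permutation test gave p = 0.2. Krt8 is the only one of the 10 with 10 spots on each array, which are averaged in its value.

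Krt18, the type I partner of Krt8, had a log2 signal of 12.98, 13.37 and 12.65 in C1, C2 and C3 and of 11.96, 13.10 and 12.33 in S1, S2 and S3. S2 stood above C1 and C3, so the overlap lay in a different S rat than for Krt8. The difference in log2 signal was 0.54 (standard error 0.35, 95% interval -0.30 to 1.38, limma adjusted p = 0.498). Without S1 and S3, which leaves S2 alone for the S strain, it was -0.10.

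Krt19, the smallest of the type I keratins and widespread in simple epithelia, read 15.16, 14.80 and 14.29 in C1, C2 and C3. In S1, S2 and S3 it read 13.40, 14.08 and 13.98, all below C3. On the log2 scale the strains differed by 0.94 (standard error 0.30, 95% interval 0.21 to 1.66), with an unadjusted p of 0.0195 and an adjusted p of 0.333 by limma. The difference between C3 and S2 was small beside the spread of the congenic rats, whose SD was 0.44.

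Krt20 had the smallest p-value of the 10. The congenic rats C1, C2 and C3 read 13.80, 13.46 and 13.21, and the S rats S1, S2 and S3 read 12.48, 12.42 and 12.59. The S rats were close together (SD 0.08, n = 3) and every congenic rat stood above them. The fold change of 1.99 fell just short of the cut-off for a call, with a log2 fold change of 0.99 (standard error 0.21, 95% interval 0.49 to 1.49) and an unadjusted p of 0.00262 by limma. Unlike Krt18 and Vil1, Krt20 had its lowest value in S2. Its unadjusted p stayed under 0.05 in each of 17 alternative analyses. Among these, the mean of all probes could not differ from the main fit, array weights did not converge, and leaving out S1 and S3 left S2 alone. The log2 fold change of Krt20 was 0.84 to 1.13 when each rat was left out in turn.

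Krt7, the type II keratin that is scarce in normal colon, ran the other way. Its log2 signal was 7.67, 7.89 and 7.89 in C1, C2 and C3 (SD 0.13), and 9.73, 7.75 and 8.77 in S1, S2 and S3 (SD 0.99). S1 and S3 were above every congenic rat, and S2 lay within the congenic range. The log2 fold change was -0.94 (standard error 0.48, 95% interval -2.10 to 0.22, limma adjusted p = 0.433). Without S2 it was -1.44 and Krt7 was called lower (limma adjusted p = 0.0302). In that fit 1725 of 23997 probes were called lower, and 2554 lower probes had an adjusted p under 0.05 by limma. Without S1 and S3 the log2 fold change of Krt7 was 0.064, so the difference rested on which S rats were included. The other mesothelial markers tested were Msln, Wt1 and Upk1b, and none of the 4 was called, with log2 fold changes of -1.35 for Msln, 0.30 for Wt1 and 0.63 for Upk1b.

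Vil1 encodes villin, the actin-bundling protein of the brush border. Readings of 12.40, 12.27 and 11.69 in C1, C2 and C3 stood against 10.86, 11.48 and 10.98 in S1, S2 and S3. The lowest congenic rat, C3, was above the highest S rat, S2. The log2 fold change was 1.01 (standard error 0.28, 95% interval 0.35 to 1.68), with an unadjusted p of 0.00922 and an adjusted p of 0.283 by limma. Its fold change was so near the cut-off that the call was lost when C1, C2, S1 or S3 was left out (log2 fold changes of 0.87, 0.94, 0.89 and 0.95) and with normexp background correction (0.97), although the unadjusted p was at most 0.0359 whichever single rat was left out. Without both S1 and S3 the log2 fold change was 0.64, with an unadjusted p of 0.137.

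Epcam, a marker of nearly all epithelial cells, read 14.49 and 14.55 in C1 and C2 and 13.62 in C3. The S rats read 13.03, 13.66 and 13.57, so S2 was just above C3. Between the strains the log2 difference was 0.81 (standard error 0.32, 95% interval 0.03 to 1.58, unadjusted p = 0.0442, limma adjusted p = 0.380), and the exact permutation test gave p = 0.2. Without C3 the log2 fold change was 1.11, and Epcam was then called higher.

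Cdh1, the E-cadherin of adherens junctions, differed little between rats of a strain. It read 14.23, 14.15 and 13.87 in C1, C2 and C3 and 13.48, 13.67 and 13.53 in S1, S2 and S3, and the strains did not overlap. The log2 fold change of 0.52 (standard error 0.18, 95% interval 0.08 to 0.96) corresponds to 1.44-fold, with an unadjusted p of 0.0266 by limma.

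Cdh17, the cadherin of liver and intestine, read 14.16, 13.98 and 14.30 in C1, C2 and C3 and 13.69, 13.39 and 13.55 in S1, S2 and S3. Here C3 was the highest congenic rat, whereas it was the lowest for every keratin but Krt7. The log2 fold change was 0.61 (standard error 0.18, 95% interval 0.16 to 1.05, unadjusted p = 0.0153 by limma), and its value without S1 and S3 was 0.76.

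Cdx2, the transcription factor of intestinal identity, read 14.09, 14.00 and 14.34 in C1, C2 and C3. It read 13.52, 13.73 and 12.90 in S1, S2 and S3, with S3 far below the other rats. The log2 fold change was 0.76 (standard error 0.26, 95% interval 0.13 to 1.39, unadjusted p = 0.0249 by limma) and was 0.52 without S3, where the unadjusted p was 0.0735.

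**Figure D2:**
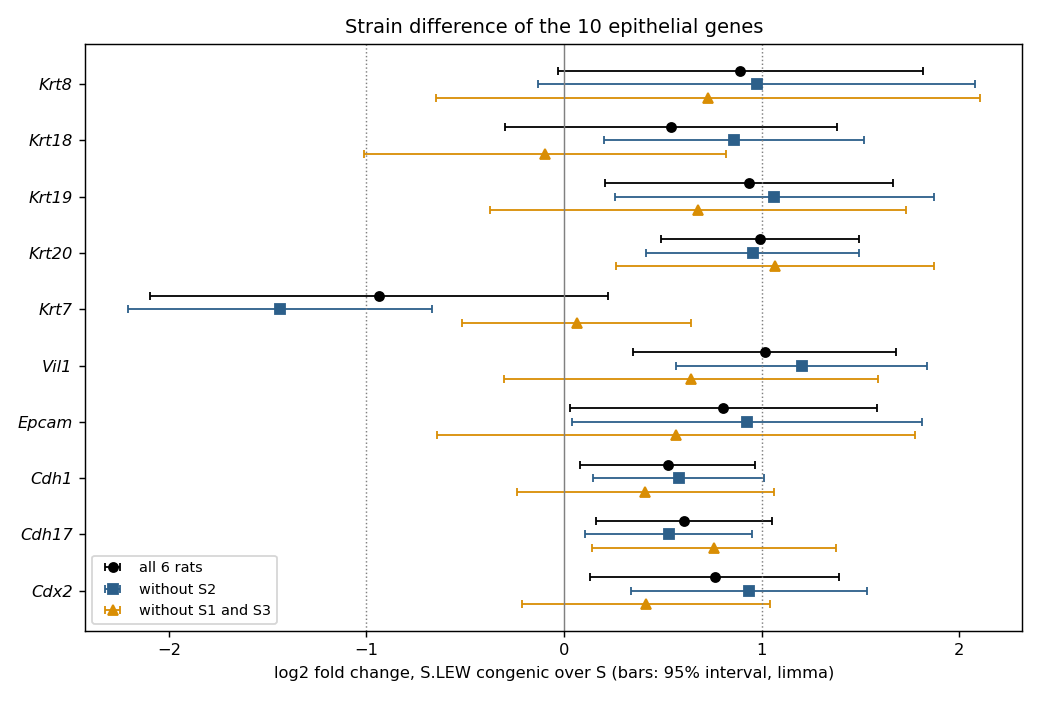
Log2 fold change of each gene, S.LEW congenic over S, with its 95% interval from limma, for all 6 rats (black circles), without S2 (blue squares) and without S1 and S3 (orange triangles, S2 alone for the S strain). Dotted lines mark a 2-fold change, and Krt18 and Krt7 are the genes whose triangle lies on the other side of 0 from the circle.

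The genes shared an order of the rats in part. Averaged over the 9 genes other than Krt7, the deviation from the mean of the 6 arrays was 0.60, 0.48 and 0.10 for C1, C2 and C3 and -0.60, -0.18 and -0.39 for S1, S2 and S3, on the log2 scale. All 3 congenic rats were above all 3 S rats in this mean, with C3 and S2 nearest to each other. S1 was the lowest S rat in Krt8, Krt18, Krt19, Vil1, Epcam and Cdh1, while S2 was the lowest in Krt20 and Cdh17 and S3 in Cdx2.

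The labels name no slide, but the file headers carry a scan identifier, and arrays that share it are here taken as 1 slide. By this reading C1 lay beside the 3 S rats on slide 1, and C2 and C3 lay on slide 2. With the slide as a block the comparison rests on C1 for the congenic strain. The log2 fold change was then 1.38 for Krt8, 1.35 for Krt19, 1.30 for Krt20 and 1.30 for Vil1, and all 4 were called higher. In that fit 551 of 23997 probes were called higher. Under the same block Epcam (1.08), Cdh1 (0.67), Cdh17 (0.62) and Cdx2 (0.71) no longer had an unadjusted p under 0.05, and the smallest adjusted p of any probe by limma was 0.818.

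Markers of other cell types moved with the rats too. The 3 lymphoid genes tested of 9 listed had a mean deviation of -1.87 to -1.58 in the congenic rats, 3.38 in S1, -1.65 in S2 and 3.31 in S3. The 8 smooth muscle genes had 0.41 to 0.64 in the congenic rats, -1.60 in S1, 0.74 in S2 and -0.61 in S3. S2 thus resembled the congenic rats in both lists, yet was below them in the mean of the 9 epithelial genes. The 8 skeletal muscle genes had -0.96 to -0.47 in the congenic rats, -0.08 in S1, 1.26 in S2 and 0.85 in S3. Among them Myh1 and Mybpc1 were well above background in all S rats and in no congenic rat. Myh1 and Mybpc1 thus passed the filter on detection in 3 or more of the 6 arrays through the S rats alone, which shapes this mean. S1 and S3, the rats with high lymphoid markers, were also the rats with high Krt7. The part of these other cell types in the differences of the 10 genes was not tested. With S1 and S3 left out, Krt20 and Cdh17 were the only 2 of the 10 with an unadjusted p under 0.05 by limma (0.0204 and 0.0260), and the median log2 fold change of the 10 was 0.60.

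**Figure D3:**
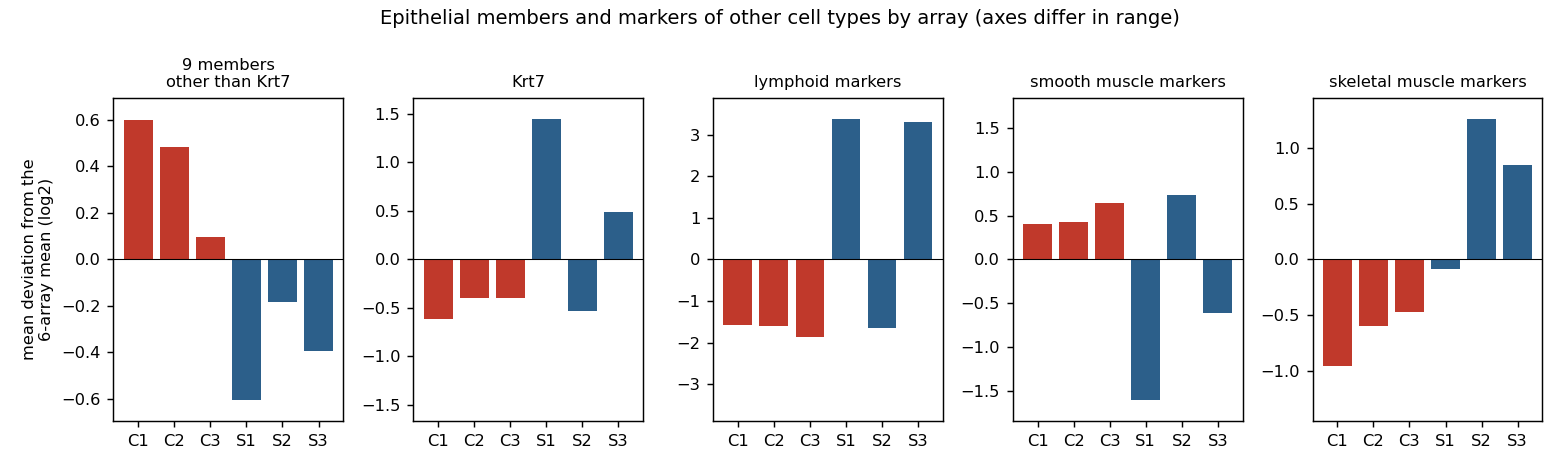
Mean deviation of each array from the mean of the 6 arrays (log2) for the 9 genes other than Krt7, for Krt7, and for lymphoid, smooth muscle and skeletal muscle markers, with congenic rats in red and S rats in blue. The panels have different ranges. S1 and S3 stand apart from the other 4 rats in the lymphoid panel, S2 is at the congenic level there and in smooth muscle, and all 3 S rats are below 0 in the first panel.

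Epcam was subtracted on each array to see how far the other genes differed from this general epithelial marker. After the subtraction the difference between the strains on the log2 scale was 0.09 for Krt8, -0.26 for Krt18, 0.13 for Krt19, 0.19 for Krt20, 0.21 for Vil1, -0.28 for Cdh1, -0.20 for Cdh17 and -0.04 for Cdx2, and -1.74 for Krt7. The strains overlapped in all 9 genes, with exact permutation p-values of 0.2 (Krt7) to 1 (Cdx2). Krt8, Krt18, Krt19, Krt20, Vil1 and Cdh1 lay within 0.53 of their own mean difference from Epcam on every array. Cdh17 reached 0.65 and Cdx2 0.77, both in C3, whereas Krt7 ranged from -1.29 in C1 to 2.24 in S1. The spread among rats of a strain was larger for Cdh17 and Cdx2 after the subtraction than before it, with an SD of the congenic rats of 0.66 and 0.69 against 0.16 and 0.17.

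**Figure D4:**
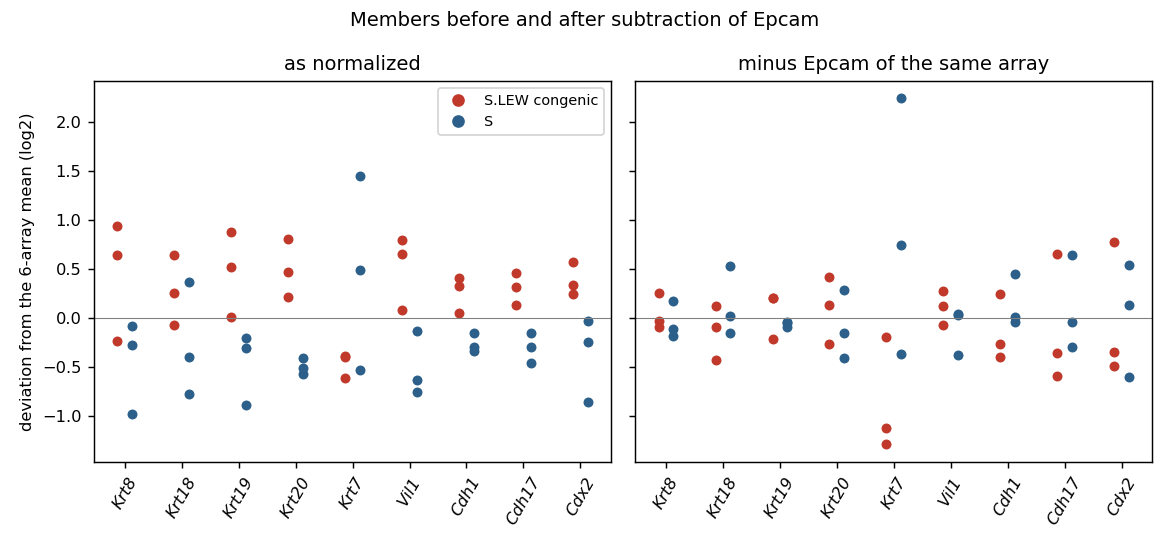
Deviation of each gene from its mean over 6 arrays (log2), as normalized (left) and after subtracting Epcam of the same array (right), with 3 congenic rats in red and 3 S rats in blue. On the right the strains overlap in all 9 genes, and Krt7 has the widest spread.

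The proteins that work with these genes were taken as lists. For each list here and below, the background is the share over all genes tested. By limma, 3.79% of all genes were called higher and 2.62% lower. At an unadjusted p under 0.05 by limma, 10.1% were higher and 4.4% lower. Of 13 partners of villin in the brush border, 1 was called higher and 0 lower, and 5 were higher at an unadjusted p under 0.05, with a median log2 fold change of 0.57. The gene called was Ush1c, which encodes the scaffold harmonin that links protocadherins between microvilli. It read 11.57, 11.45 and 11.10 in the congenic rats and 9.66, 10.96 and 10.13 in the S rats, and its log2 fold change was 1.12 (SE 0.35).

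Of 11 genes listed as partners of Cdh1 at adherens junctions, all had a positive log2 fold change, beside 6575 of all 12418 genes. The list is broad and also holds the claudin Cldn7 and the polarity gene Pard3. From it 1 gene was called higher (3.79% of all genes). At an unadjusted p under 0.05 by limma, 7 were higher (10.1% of all genes), and the median was 0.79. Nectin2, a cell adhesion protein of adherens junctions, was the gene called, at 9.80, 9.89 and 9.54 in the congenic rats and 8.46, 9.23 and 8.43 in the S rats. The mean deviation of this list was 0.34 to 0.44 in the congenic rats, -0.81 in S1, 0.25 in S2 and -0.58 in S3, so S2 was nearer to the congenic rats than to the other S rats. The list therefore ran over the rats in another way than Krt20, in which S2 was the lowest. Of 7 genes that anchor keratins at desmosomes, none was called and 2 were higher at an unadjusted p under 0.05. The largest change among them was that of plakophilin 3 (Pkp3), with a log2 fold change of 0.85 (SE 0.30).

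Of 11 other transcription factors of the intestine, all had a positive log2 fold change, beside 6575 of all 12418 genes, and Ehf was called higher. At an unadjusted p under 0.05 by limma, 2 of the 11 were higher. The mean deviation of this list was 0.09 to 0.40 in the congenic rats, -0.69 in S1, 0.18 in S2 and -0.27 in S3, so S2 lay within the congenic range. Ehf, an ETS factor of epithelia, read 10.12, 10.24 and 9.57 in the congenic rats and 8.20, 9.64 and 8.64 in the S rats, so that S2 overlapped with C3. Of 9 other keratins tested of 25 listed, none was called, with a median log2 fold change of 0.064. Krt84, a keratin of hair and nail, had the largest change among them (-0.74, standard error 0.64), and it was well above background on only 1 congenic array. The strains overlapped in 8 of these 9, and Krt75, a keratin of hair follicles, was the 1 gene with an unadjusted p under 0.05 (log2 fold change -0.71, SE 0.23), although it too was well above background on only 1 congenic array.

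Among 7 other cadherins, Cdh19, a cadherin of glia and neural crest, was called higher with a log2 fold change of 1.85 (SE 0.58). At an unadjusted p under 0.05 by limma, 2 of the 7 were higher and 1 was lower. The median log2 fold change of the 7 was 0.52, and 2 of them had a negative one. Of 8 genes of mesenchymal cells and of the transition from epithelium to mesenchyme, 1 was called higher, Twist1, a transcription factor of mesenchyme, with a log2 fold change of 1.04 (SE 0.41), and 0 were called lower. Its values were 9.38, 9.76 and 9.50 in the congenic rats and 7.74, 9.34 and 8.43 in the S rats. The median of these 8 was 0.18, and 4 of the 8 had a negative log2 fold change.

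Among 9 genes of absorptive colonocytes, 3 were called higher and 1 lower, and the genes did not move together. Car1, a carbonic anhydrase of the surface colonocyte, differed by a log2 fold change of 3.41 (SE 0.73) and Cyp2d2, a cytochrome P450, by 1.87 (SE 0.30). Guca2b, which encodes uroguanylin, was called lower with a log2 fold change of -1.09 (SE 0.33). Of 6 goblet cell genes, Spdef, the transcription factor of secretory cells, was called higher at a log2 fold change of 1.25 (SE 0.38). At an unadjusted p under 0.05 by limma, 3 of the 6 were higher and 0 lower. The median log2 fold change of the 6 was 0.43, and 2 of them had a negative one. The goblet cell genes Muc2 and Spink4 were listed but not tested. Of 6 genes of the proliferating crypt, none was called. The largest change among them was that of the crypt gene Olfm4, whose log2 signal was 7.13, 6.72 and 7.83 in the congenic rats and 9.18, 2.47 and 4.29 in the S rats, well above background on 2 of the 3 S arrays. None of 4 squamous genes was called, and Krt14, a keratin of basal cells, differed by 0.27 on the log2 scale (SE 0.57).

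Among the other cell types, 1 of 8 smooth muscle genes was called higher (Smtn, smoothelin, log2 fold change 1.12) and 2 of 5 adipocyte genes (Adipoq, 1.91, and Cfd, 1.57). All 8 smooth muscle genes and all 5 adipocyte genes had a positive log2 fold change. Their medians were 0.95 and 0.92, beside 0.78 for the 10 epithelial genes. None of 7 genes of enteric neurons and glia was called, with 1.18 for Prph, a neuronal filament. Of 3 lymphoid genes 2 were called lower, Cd3g and Lck. Of 8 skeletal muscle genes 3 were called lower, Myh1, Mybpc1 and Tnnt3, while 2 of the 8 had a positive log2 fold change. Myh1 and Mybpc1 passed the detection filter through the S arrays alone, so their calls are no evidence on skeletal muscle genes in general.

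**Figure D5:**
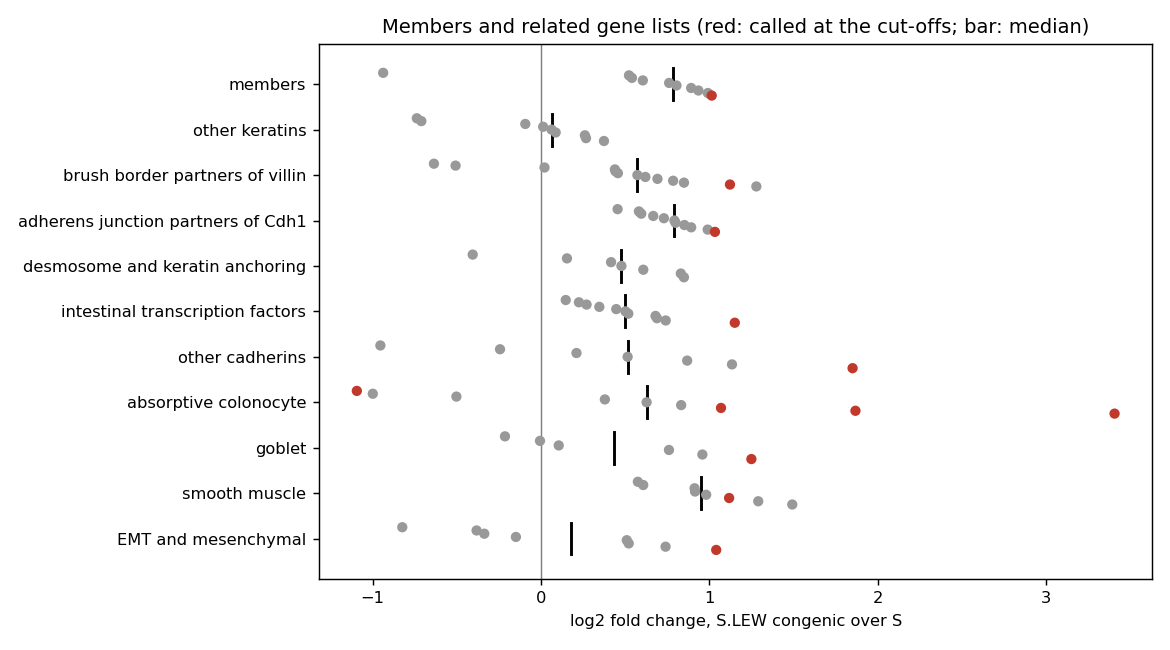
Log2 fold change, S.LEW congenic over S, of each gene of the 10 and of 10 related lists, with genes called at the cut-offs in red and a black bar at the median of a list. The medians of the 10 genes and of the adherens junction partners lie near 0.8, and that of the smooth muscle genes is higher, at 0.95. The median of the other keratins lies near 0, and the absorptive colonocyte genes spread from -1.09 to 3.41.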

How the data were processed

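RNA from the colons of 3 S.LEW congenic and 3 S rats was hybridized to Agilent 4x44K rat arrays in a single color. Per the file headers, the authors read the scans with Feature Extraction 11.0.1.1, and the deposited scanner files hold background-corrected intensity values of 42877 spots per array. Quantile normalization by the authors in GeneSpring, with a filter on detection in 3 or more of the 6 arrays, gave the deposited log2 values of 23997 probes, which were used here. On each array they correlated at 0.9986 to 0.9998 with the scanner values, and their medians were 8.55 to 8.57, with no centering per gene. By the scanner flags, 23 of these probes were well above background on under 3 arrays.

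Probes were named through accessions matched to RefSeq genes of GRCr8 (18005 of 30367 probes, 15168 genes). The brightest probe stood for a gene with several. Promoter sequences are RefSeq's, in GRCr8, and no other coordinates are given, since the arrays were designed on another assembly. A probe counted as well above background where at least 50% of its spots did.

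The comparison of strains used lmFit and eBayes of limma 3.58.1 (R 4.3.3) over all 23997 probes without covariates, with Benjamini-Hochberg adjustment. Intervals are at 95%. Exact permutation tests were two-sided. p-values measure the spread between these rats only. Python 3.11.15, pandas 2.3.3 and matplotlib 3.10.9 served for summaries and plots. The fit was tested on simulated data. The 10 genes and the 17 other lists were chosen with earlier results of these data known. Named from each list were up to 3 called genes with the largest change, or, where none was called, the gene with the largest change. Other genes given with values (Wt1, Upk1b, Krt75) were named after their values were seen.

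The alternatives on scanner values were quantile normalization with the detection filter or with none, scaling to the 75th percentile, and normexp (offset 50) on median signals. Those on the deposited values were a filter on all 6 arrays, a block for the slide or for the replicate number, array weights and the methods' t-test. The mean of all probes of a gene was also taken, and each rat was left out in turn. A gene of the lymphoid list is not reported here and was left out of its counts and means. Leaving out S1 and S3 was added after the data were seen.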

Additional observations from a re-analysis of the deposited data

How the results depend on the processing

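Of the log2 fold changes of the 10 genes, only those of Krt18 (-0.10) and Krt7 (0.064) changed sign in any alternative, both without S1 and S3, a setting chosen after seeing the data, for the lymphoid markers of these rats, in which S2 is assumed to vary like the others. Over all 10 genes and alternatives, 131 values kept their direction and their side of an unadjusted p of 0.05, 30 no longer passed it and 7 newly passed it. The mean of all probes changed nothing because each gene has 1 probe, so its values, counted among the 131, are no check. Genes of the 10 called higher numbered 2 with scaling to the 75th percentile and 4 with the slide as a block, and 0 to 5 with each rat left out, with 0 to 1 called lower (Krt7, without S2). It was 0 without C1 or S1, 5 without C3 (Krt8, Krt19, Krt20, Vil1 and Epcam) and 2 without S2 or S3. In the fit without C3, 689 of 23997 probes were called higher. Without C2, with normexp and without S1 and S3 the 1 gene called higher was Krt20 in place of Vil1. By the scan identifiers, slide 1 held C1 with all S rats and slide 2 held C2 and C3. The value with the slide as a block (4 genes called higher, Krt8, Krt19, Krt20 and Vil1) therefore rests on C1 for the congenic strain. The labels do not say whether rats of the same number are paired. The correlations of their deviations were -0.02, -0.13 and -0.06, which cannot decide it with 3 rats per strain. With the replicate block 1 of the 10 was called higher and 794 probes were higher and 744 lower, and 4 of the 10 rather than 7 had an unadjusted p under 0.05. Array weights did not converge, with weights of 0.12 (S2) to 29.2 (S3), and their counts (2 of the 10 higher, 2090 probes higher and 1744 lower) are not relied on. Beside 776 probes higher and 562 lower, 358 were higher with normexp (393 lower), 515 higher and 178 lower by the methods' t-test, 450 higher (478 lower) without S1 and S3, 342 lower with a filter on all 6 arrays (679 higher) and 227 lower with the slide as a block (551 higher). With each rat left out, 477 to 2397 probes were higher and 192 to 1725 lower. The highest counts came without S2, where 2999 probes higher and 2554 lower had a limma adjusted p under 0.05, among them Vil1 (0.0294), Krt7 (0.0302), Krt20 (0.0338) and Cdx2 (0.0451). The cause was not tested. Scaling to the 75th percentile moved the split of calls to 693 higher and 758 lower. The signal over background did not limit the 10 genes, which were well above it on all arrays.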
